A study of Mus musculus with 6 samples.

Results

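Dcpp1, Dcpp2, Dcpp3, Muc19, Smgc, Klk1 and Egf are genes of the mouse sublingual and submandibular salivary glands. They were measured here in RNA from mammary epithelial cells (MECs). The 7 genes were taken by symbol from the 55487 genes of the deposited count table, and were selected on the presence of salivary gland transcripts among the counts of these libraries, so their levels in each mouse are a description and carry no test. Genotype had no part in the choice. RNA-seq was done on MECs of 3 wild-type (WT) and 3 IL-21isoTg mice, with 1 library per mouse. All 6 were virgin female BALB/c mice of 10 weeks with no other treatment named in the labels. IL-21isoTg mice express a membrane-bound isoform of the cytokine IL-21 in T cells, and the promoter of the transgene is not given in the sources used here. MECs were prepared by collagenase digestion of mammary tissue and magnetic removal of cells with CD45 (leukocytes), CD31 (endothelium) or CD140a (fibroblasts).

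The mouse has 3 pairs of major salivary glands. Acinar cells of the sublingual gland secrete the gel-forming mucin encoded by Muc19, and crescents of serous cells called demilunes cap the mucous acini. The Dcpp genes encode demilune cell and parotid proteins, small secreted proteins made by those demilunes and by the parotid gland. Smgc encodes submandibular gland protein C and lies at the start of the Muc19 locus. In the submandibular gland, granular duct cells store tissue kallikrein (Klk1), related kallikreins of the Klk1b family and the growth factor EGF (Egf), and these cells are better developed in males than in females. The parotid gland is serous and secretes amylase and other enzymes.

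The libraries held between 15902886 and 25719244 counts, and each gene's level is its count divided by the TMM-adjusted size of its library (CPM). The epithelial genes Epcam and Krt8 had 8867 to 28306 and 25448 to 80839 counts, the basal keratin genes Krt5 and Krt14 1940 to 8391 and 3492 to 12794. The genes of the antigens used for the removal had 45 to 209 counts for Ptprc (CD45), 377 to 2073 for Pecam1 (CD31) and 350 to 1453 for Pdgfra (CD140a). The fibroblast matrix genes Col1a1 and Dcn had 8694 to 33566 and 6475 to 18986 counts, a range close to that of Epcam. Il21 had 0, 0 and 37 counts in the WT libraries and 795, 216 and 131 in the IL-21isoTg libraries, so the library labelled WT 3 also carried Il21 counts. A list of 11 parotid genes took 22.5%, 5.06% and 15.2% of all counts in WT, against 21.3%, 4.42% and 39.6% in IL-21isoTg. The library of WT mouse 2 stood apart: 24 genes had at least 10 CPM there and at least 20 times their level in each other library, against 1 such gene in WT mouse 1 and 0 in the other 4 libraries. That rule was set after the values were seen. Where a member's fold change, or the ratio of the Dcpp genes to Klk1 and Egf, rests on WT mouse 2, WT mouse 3 or IL-21isoTg mouse 3, it is given with and without that library. The spreads between mice and the medians over gene lists are given with all mice only.

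The Dcpp genes form a cluster on chromosome 17. In the GENCODE M21 annotation of GRCm38, Dcpp1 (ENSMUSG00000096445) spans chr17:23880876-23882853, Dcpp2 (ENSMUSG00000096278) spans chr17:23880880-23900788 and Dcpp3 (ENSMUSG00000057417) spans chr17:23917458-23919441, all on the plus strand. Their coding sequences are close copies, with 93.8% identity between Dcpp1 and Dcpp2, 93.2% between Dcpp1 and Dcpp3 and 95.4% between Dcpp2 and Dcpp3. The stretch of 120 coding bases printed here shows how a read can be assigned to 1 of the 3 genes. It lies at chr17:23882553-23882672 in Dcpp1, chr17:23900488-23900607 in Dcpp2 and chr17:23919141-23919260 in Dcpp3, on the plus strand of GRCm38, in exons. Capitals mark the 26 positions at which at least 1 of the 3 genes differs from the others, of 46 such positions in the whole coding sequence.
Dcpp1: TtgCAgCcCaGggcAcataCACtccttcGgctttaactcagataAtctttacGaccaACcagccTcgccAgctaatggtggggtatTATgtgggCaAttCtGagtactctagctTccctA
Dcpp2: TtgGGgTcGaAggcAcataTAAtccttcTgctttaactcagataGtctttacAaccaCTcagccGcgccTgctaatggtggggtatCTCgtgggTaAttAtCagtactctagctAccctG
Dcpp3: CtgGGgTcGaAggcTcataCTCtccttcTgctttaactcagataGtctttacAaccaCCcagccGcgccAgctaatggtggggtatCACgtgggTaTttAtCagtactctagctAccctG

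The differing letters were clustered, with stretches between them that all 3 genes share. Of the transcript windows of 50 bases, 46.5% in Dcpp1, 44.2% in Dcpp2 and 45.8% in Dcpp3 were found letter for letter in another Dcpp gene. At 150 bases, the length of 1 sequenced read, the shares were 4.06%, 4.79% and 5.03%. Dcpp1 and Dcpp2 also share 30 annotated exon bases. How the counting treated reads that match more than 1 gene is not given in the sources used here, so the split of counts among the 3 genes is uncertain and their sum is given too.

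The 3 Dcpp genes were similar upstream as well. RefSeq promoter entries (GRCm38.p6) were matched for 6 of the 7 genes, all except Muc19. Over the 250 bases before the start site, identity was 93.3% between Dcpp1 and Dcpp2, 94.9% between Dcpp1 and Dcpp3 and 96.4% between Dcpp2 and Dcpp3. The 3 genes kept nearly the same order of level across the mice, while Klk1 took another order. Any link of these orders to the upstream letters was not tested. The last 80 bases before each start are printed for these 3 genes and for Klk1. They lie at chr17:23880796-23880875 for Dcpp1, chr17:23898642-23898721 for Dcpp2, chr17:23917378-23917457 for Dcpp3 and chr7:44225280-44225359 for Klk1, all on the plus strand. The GENCODE span of Dcpp2 begins at chr17:23880880, close to the start of Dcpp1. The Dcpp2 stretch printed here precedes a later start site inside that span. Capitals mark the letters TATAA, which were searched on the strand of the gene only.
Dcpp1 upstream: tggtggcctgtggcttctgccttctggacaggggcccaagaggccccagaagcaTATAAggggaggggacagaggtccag
Dcpp2 upstream: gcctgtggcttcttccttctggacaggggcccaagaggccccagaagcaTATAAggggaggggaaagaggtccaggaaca
Dcpp3 upstream: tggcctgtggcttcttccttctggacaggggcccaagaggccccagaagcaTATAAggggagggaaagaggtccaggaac
Klk1 upstream: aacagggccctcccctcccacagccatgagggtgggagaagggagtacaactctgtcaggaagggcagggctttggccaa

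TATAA began 26 bases before the start of Dcpp1, 31 before the RefSeq start of Dcpp2 used here, 29 before that of Dcpp3 and 30 before that of Smgc. It was not found in the 250 bases upstream of Klk1 or of either start site of Egf. Of 32851 promoters in the table, 16% held these letters anywhere in the 250 bases and 3.52% held them between 40 and 20 bases before the start. A match is a description of the letters and does not show that the site is used.

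Dcpp1 was one of the most abundant genes in every MEC library. Its counts were 70793, 245665 and 80618 in WT and 227404, 132883 and 80445 in IL-21isoTg. It took between 0.318% and 1.44% of all counts and ranked between 3 and 15 among all genes by count. In CPM, its level was 3193, 11804 and 3627 in WT and 9454, 4947 and 7502 in IL-21isoTg. WT mouse 2 was highest and the other WT mice were lowest, so the IL-21isoTg values lay inside the WT range. The mean was 6208 ± 4851 CPM (SD, n = 3) in WT and 7301 ± 2261 CPM (SD, n = 3) in IL-21isoTg. In RNA from a whole cell preparation, fewer cells of a type and less RNA per cell cannot be told apart.

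Dcpp2 was lower than Dcpp1 in each library but had a wider range over the 6 mice, its highest level 6.36 times its lowest against 3.70 for Dcpp1. Its counts were 3030, 18081 and 4737 in WT and 14818, 15148 and 4982 in IL-21isoTg. Its level was 136.7, 868.8 and 213.1 CPM in WT and 616.1, 563.9 and 464.6 CPM in IL-21isoTg. WT mouse 2 was again highest, above all IL-21isoTg mice, and WT mice 1 and 3 were below all IL-21isoTg mice. The SD was 402.4 CPM around a WT mean of 406.2 and 76.9 CPM around an IL-21isoTg mean of 548.2 (n = 3 each). Within IL-21isoTg, Dcpp2 thus varied less for its mean than Dcpp1, whose SD was 2261 CPM around 7301.

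Dcpp3 was a minor member of the cluster. Its counts were 84, 389 and 97 in WT and 312, 140 and 106 in IL-21isoTg. In CPM its level was 3.79, 18.7 and 4.36 in WT and 13.0, 5.21 and 9.89 in IL-21isoTg. As for Dcpp1, WT mouse 2 was highest and WT mouse 1 lowest. Per kilobase of exon, the mean level in WT was 10062 CPM for Dcpp1, 554.9 CPM for Dcpp2 and 12.8 CPM for Dcpp3. In IL-21isoTg it was 11833, 748.9 and 13.4 CPM per kilobase, in the same order.

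The share of Dcpp2 relative to Dcpp1 was not constant. Dcpp2 counts were 4.28%, 7.36% and 5.88% of Dcpp1 counts in WT and 6.52%, 11.4% and 6.19% in IL-21isoTg. The Wilson 95% intervals took the Dcpp1 counts as a fixed number of trials, so they leave out the counting error of Dcpp1. They also hold no variation between mice. The intervals ran from 4.13% to 4.43% in WT mouse 1 and from 11.2% to 11.6% in IL-21isoTg mouse 2, and so did not overlap. Dcpp3 counts were 0.105% to 0.158% of Dcpp1 counts, with intervals of 0.0893% to 0.124% in IL-21isoTg mouse 2 and 0.143% to 0.175% in WT mouse 2. IL-21isoTg mouse 2 thus had the highest Dcpp2 share. Its Dcpp3 interval overlapped that of every other mouse except WT mouse 2.

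Muc19, which encodes the sublingual mucin, and Smgc, at the start of the Muc19 locus, were at or near 0. Muc19 (ENSMUSG00000044021, chr15:91838326-91934555, plus strand, 9105 exon bases) had 0, 4 and 0 counts in WT and 0, 2 and 0 in IL-21isoTg. GENCODE M21 labels Muc19 a processed transcript, while its deposited label is protein coding. Whether these exon bases cover the whole Muc19 mRNA was not tested. Smgc (ENSMUSG00000047295, chr15:91838265-91861438, plus strand, 3410 exon bases) had 0, 4 and 0 counts in WT and 0, 0 and 0 in IL-21isoTg. WT mouse 2, the mouse with the most Dcpp1, was the only library with counts for both genes. A floor of 3 counts equals 0.112 to 0.280 CPM in these libraries, so a level up to that value could be missed in a library at 0. The genes share 95 exon bases, which leaves 9010 bases of Muc19 and 3315 of Smgc unshared, and neither had a transcript window of 100 bases in common with another gene. Over all 6 libraries there were 6 counts of Muc19, 4 of Smgc and 837808 of Dcpp1.

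The first 5 genes are therefore not called sublingual as a group. Muc19 and Smgc do not assess the serous demilunes or the parotid gland, both of which make the Dcpp proteins, so neither source was tested. Of the 10 genes on a sublingual list, 4 were too low to be tested: Muc19, Smgc, the homeobox gene Nkx2-3 with 0 to 5 counts and Agr2, which encodes a protein disulfide isomerase of mucous cells, with 2 to 56 counts. The 3 most abundant that are not Dcpp genes were Creb3l1, a transcription factor of secretory cells, with 641 to 2025 counts, Spdef, a transcription factor of secretory epithelium, with 198 to 536, and Galnt12, an enzyme of O-glycosylation, with 47 to 90. The counts of this group were those of the Dcpp genes, and it is called the Dcpp group from here on.

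**Figure D1:**
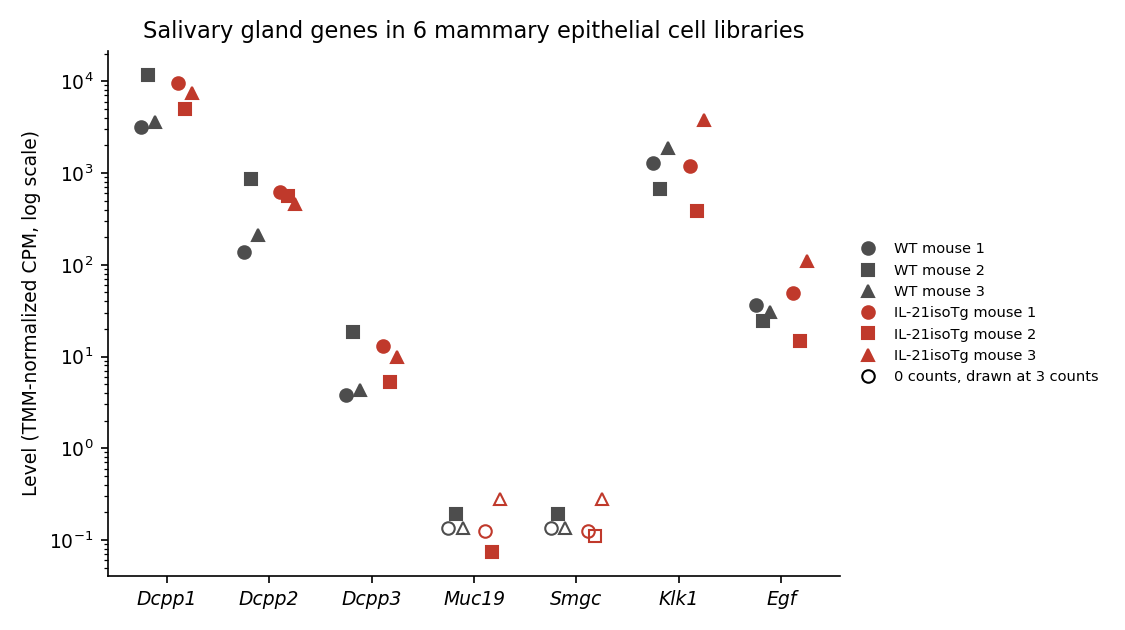
Level of each gene in each mouse, in TMM-normalized CPM on a log scale, with WT mice in grey and IL-21isoTg mice in red and 1 symbol per replicate number. Open symbols are libraries with 0 counts, drawn at the level of 3 counts; Dcpp1 and Klk1 are the highest genes and Muc19 and Smgc lie at the floor.

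Klk1 was more abundant than Egf in every library. Klk1 (ENSMUSG00000063903, chr7:44225360-44229618, plus strand) encodes tissue kallikrein, a serine protease that releases kinins from kininogen. Its counts were 28235, 14017 and 42066 in WT and 28732, 10406 and 40165 in IL-21isoTg. Its level was 1273, 673.5 and 1893 CPM in WT and 1195, 387.4 and 3746 CPM in IL-21isoTg. IL-21isoTg mice held both the highest and the lowest value, and all WT mice lay between them. The mean was 1280 ± 610 CPM (SD, n = 3) in WT and 1776 ± 1753 CPM (SD, n = 3) in IL-21isoTg.

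Klk1 has many close relatives in the genome, and of its transcript windows 24% at 50 bases, 5.09% at 100 bases and 0% at 150 bases were found in a Klk1b gene. The Klk1b genes had few counts by comparison. The 13 Klk1b genes on the submandibular list summed to 234, 117 and 371 counts in WT and to 285, 96 and 317 in IL-21isoTg. This sum was highest and lowest in the libraries with the most and the fewest Klk1 counts. Smr2, another gene on this list, had 0 to 5 counts. Smr3a, a secreted salivary peptide gene on the same list, had 43020 to 425426 counts, more than Klk1 in every library. Across the mice its level took the order of the summed parotid genes, given below, and not that of Klk1. Its highest level was 21.8 times its lowest, against 9.67 times for Klk1 and 16.0 times for the parotid gene Bpifa2. The list thus went both ways: the Klk1b genes and Smr2 were low beside Klk1, and Smr3a was higher than Klk1. All mice were female, the sex in which granular duct cells are less developed. These values do not settle the name submandibular for Klk1 and Egf, which are called by their symbols.

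Egf was much lower than Klk1. Egf (ENSMUSG00000028017, chr3:129677565-129755316, minus strand, 11275 exon bases) had 799, 507 and 687 counts in WT and 1185, 394 and 1185 in IL-21isoTg. Its level was 36.0, 24.4 and 30.9 CPM in WT and 49.3, 14.7 and 110.5 CPM in IL-21isoTg. The order of the IL-21isoTg mice was the same as for Klk1, with mouse 3 highest and mouse 2 lowest, and the WT mice again lay between them. The mean was 30.4 ± 5.85 CPM in WT and 58.1 ± 48.5 CPM in IL-21isoTg (SD, n = 3 each).

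Per kilobase of exon, the mean Klk1 level was 1188 CPM in WT and 1649 CPM in IL-21isoTg, and the mean Egf level was 2.70 and 5.16 CPM. Klk1 counts were 35.3, 27.6 and 61.2 times the Egf counts in WT and 24.2, 26.4 and 33.9 times in IL-21isoTg. Egf exons share 500 bases with the antisense gene 6330410L21Rik (8 to 17 counts) and 607 bases with the antisense gene Gm42697 (41 to 172 counts). The libraries were made with a directional kit, but whether the counting used strand is not given in the sources used here, so a small part of the Egf counts may come from the other strand. The other genes that overlap the members in position share 0 exon bases with them: AC110262.1 and AC110262.4 at Dcpp2, AC110262.3 at Dcpp3, Gm24515 and Gm42650 at Egf, and Gm10109 at Klk1.

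By mean level per kilobase over either genotype, the 7 genes took the order Dcpp1, Klk1, Dcpp2, Dcpp3, Egf, Smgc and Muc19 in WT. In IL-21isoTg the first 5 places were the same. Neighbours in this order were not all apart. Per kilobase, the lowest Dcpp1 value (5175 CPM, WT mouse 1) was above the highest Klk1 value (3478 CPM, IL-21isoTg mouse 3). The ranges of Klk1 (359.7 to 3478 CPM) and Dcpp2 (186.7 to 1187 CPM) overlapped, as did those of Dcpp3 (5.42 to 26.7 CPM) and Egf (1.30 to 9.80 CPM). The ranges of Dcpp2 and Dcpp3 did not overlap.

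The Dcpp genes and Klk1 took different orders from mouse to mouse. From the highest to the lowest Dcpp1 level, the order was WT 2, IL-21isoTg 1, IL-21isoTg 3, IL-21isoTg 2, WT 3 and WT 1. For Klk1 the order was IL-21isoTg 3, WT 3, WT 1, IL-21isoTg 1, WT 2 and IL-21isoTg 2. WT mouse 2, first for Dcpp1 was thus next to last for Klk1.

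The ratio of the Dcpp group to Klk1 and Egf was computed in each mouse from summed counts, with Dcpp1, Dcpp2, Dcpp3, Muc19 and Smgc over Klk1 and Egf. It was 2.55, 18.2 and 2.00 in WT and 8.11, 13.7 and 2.07 in IL-21isoTg. Both genotypes held low and high mice, and 3 of the 6 mice lay between 2.00 and 2.55. On the log2 scale the mean ratio was 2.18 ± 1.75 in WT and 2.62 ± 1.41 in IL-21isoTg (SD, n = 3 each), a difference of 0.44, which is smaller than either SD. Without WT mouse 2 the difference was 1.44, without WT mouse 3 it was -0.15 and without IL-21isoTg mouse 3 it was 1.22. With Klk1 and Egf widened to the submandibular list, which adds Smr3a, the mean log2 ratio itself fell below 0, to -0.46 in WT and -0.63 in IL-21isoTg, and the difference was -0.17. Smr3a had more counts than Klk1 in every library and followed the parotid genes across the mice. The widened ratio thus largely sets the Dcpp group against a gene with the parotid pattern. With counts per kilobase of exon the means were 3.00 and 3.45. No test was made of this ratio, since its genes were chosen with their counts known.

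**Figure D2:**
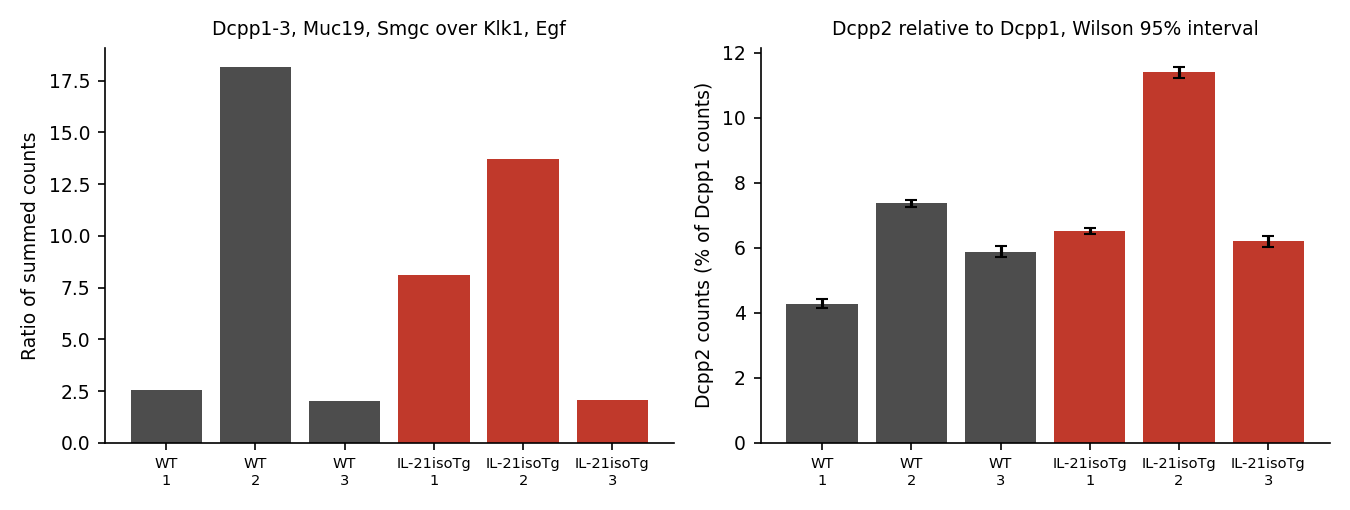
The left panel shows the ratio of summed counts of Dcpp1, Dcpp2, Dcpp3, Muc19 and Smgc to those of Klk1 and Egf, and the right panel Dcpp2 counts in percent of Dcpp1 counts with Wilson 95% intervals. WT mice are grey and IL-21isoTg mice red; the ratio is between 2.00 and 18.2 in WT and between 2.07 and 13.7 in IL-21isoTg.

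The summed parotid genes took more counts than the 7 genes together in each library, and their sum had the same highest and lowest mice as Klk1. The most abundant were Bpifa2, which encodes parotid secretory protein, with 568802 to 3993543 counts, Amy1, salivary amylase, with 188699 to 1523108, and Dnase1, a secreted nuclease, with 46335 to 305055. In WT mouse 2, Dcpp1 had more counts (245665) than Amy1 (188699) or Dnase1 (46335). From highest to lowest, the summed parotid level followed IL-21isoTg 3, IL-21isoTg 1, WT 1, WT 3, WT 2 and IL-21isoTg 2. The last 2 mice in this order were also the last 2 for Klk1. WT mouse 2, with the most Dcpp1, had 5.06% of its counts on the parotid list.

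The spread between mice depended on the reference. Across the 6 mice, the highest Dcpp1 level was 3.70 times the lowest in CPM and 22.3 times the lowest relative to the parotid list. For Klk1 the same ratios were 9.67 in CPM and 3.11 relative to the parotid list, and for Egf 7.53 and 3.70. Klk1 and Egf thus varied less when set against the parotid genes, and Dcpp1 varied more. Relative to the epithelial keratin gene Krt8, the spread was 5.56 times for Dcpp1, 12.3 times for Klk1 and 9.55 times for Egf. The part of cells from other glands in these levels was not tested.

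**Figure D3:**
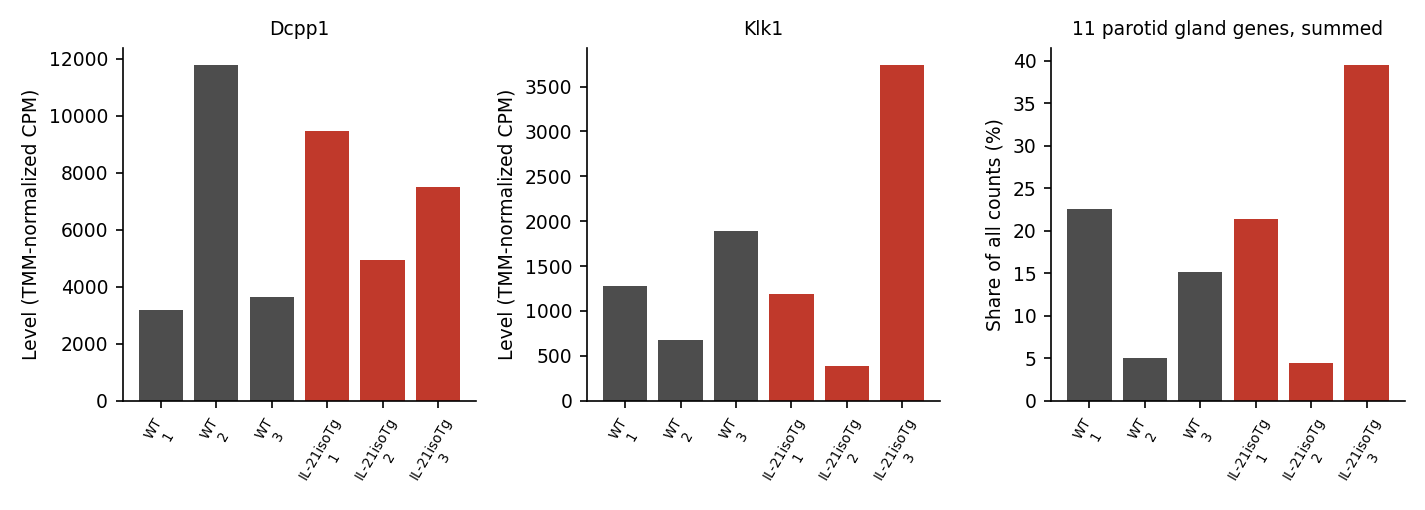
Level of Dcpp1 and of Klk1 in TMM-normalized CPM, and the share of all counts on 11 parotid genes, in each of the 3 WT (grey) and 3 IL-21isoTg (red) mice. WT mouse 2 has the highest Dcpp1 bar, and IL-21isoTg mouse 3 the highest Klk1 and parotid bars.

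Genes whose log2 CPM followed these patterns most closely over the 6 mice, with the 7 genes themselves left out, are named as a description only, since 6 values matched against 17165 genes always find close matches. The 5 nearest to Dcpp1 were Gm12802 (Pearson r = 0.985 over 6 mice), Gm26672, Gm13803, Pcdhb16 and Gm6055 (r = 0.974 over 6 mice). For Klk1 the list was Gm43360 (r = 0.998 over 6 mice), Ccdc28a, Arglu1, Mospd4 and Gm10557 (r = 0.986 over 6 mice). None of these 10 is on the salivary lists used here. Several were low, such as Gm12802 at 0.586 to 1.39 CPM and Mospd4 at 0 to 2.1 CPM, while Arglu1 was at 42.4 to 77.4 CPM. All 10 share the libraries and their depth with the gene they resemble. Muc19 was too low for such a match.

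Whether these genes differed between the genotypes in the MEC preparations was examined with edgeR's quasi-likelihood test over 17165 genes. The test compares whole preparations and does not show which cells made the transcripts. The 5 genes with enough counts to be tested were Dcpp1, Dcpp2, Dcpp3, Klk1 and Egf, and none passed an adjusted p of 0.05. Over all genes tested, 0 were called (0%), with 999 at an unadjusted p under 0.05. DESeq2 called 72 higher and 9 lower in IL-21isoTg (0.472% of genes tested), of which 0 were members, and limma-voom called 0. In all 5 members the CPM values of the genotypes overlapped. Over all genes tested, 12.1% had no overlap, so overlap in 5 genes does not set the members apart.

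The log2 fold change, IL-21isoTg minus WT, was 0.23 (SE 0.56, adjusted p = 0.951) for Dcpp1 and 0.43 (SE 0.61, adjusted p = 0.913) for Dcpp2. For Dcpp3 it was 0.064 (SE 0.64, adjusted p = 0.990). With the counts of the 3 Dcpp genes summed it was 0.25 (SE 0.56, adjusted p = 0.949). For Klk1 it was 0.47 (SE 0.74, adjusted p = 0.921) and for Egf 0.93 (SE 0.59, adjusted p = 0.820). The standard errors were larger than the fold change in each member but Egf.

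Single mice decided the size and for some genes the sign of these values. Without WT mouse 2, the log2 fold change was 1.10 for Dcpp1, 1.65 for Dcpp2 (SE 0.29, adjusted p = 0.649 in edgeR) and 1.20 for Dcpp3. In the same fit it was 0.16 for Klk1 and 0.79 for Egf. Without WT mouse 3, the library with Il21 counts, Dcpp1 was at -0.039, Dcpp2 at 0.12 and Dcpp3 at -0.27. Klk1 was then at 0.87 and Egf at 0.94. Without IL-21isoTg mouse 3, the library with the largest parotid share, Klk1 was at -0.68 and Egf at 0.088. The Dcpp genes were then at 0.22 for Dcpp1, 0.54 for Dcpp2 and 0.035 for Dcpp3. Without IL-21isoTg mouse 2, the library with the least Klk1 and Egf, Egf was at 1.39 and Klk1 at 0.95. No member passed the adjusted threshold with any mouse left out.

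**Figure D4:**
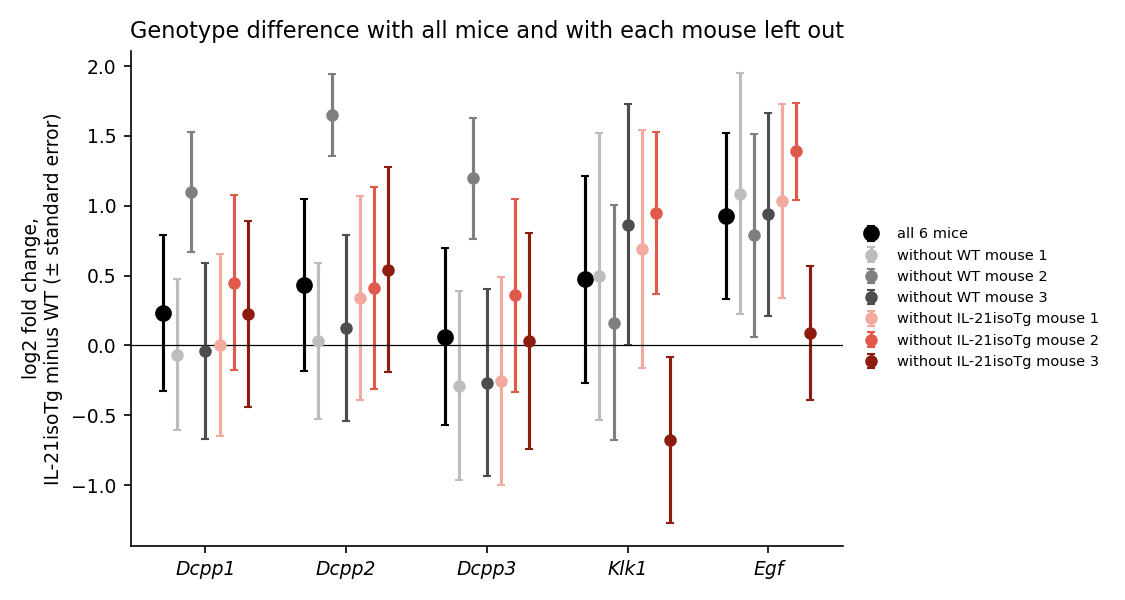
Log2 fold change (IL-21isoTg minus WT) of the 5 tested genes with its standard error, with all 6 mice in black and with each mouse left out in turn in grey (WT) or red (IL-21isoTg). Dcpp1, Dcpp2 and Dcpp3 move most when WT mouse 2 is left out, and Klk1 and Egf when IL-21isoTg mouse 3 is left out.

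The wider salivary lists gave 0 calls in either direction. Of 10 sublingual genes, 6 were tested, with a median log2 fold change of 0.19. Of 20 submandibular genes in the table, 16 were tested and 15 had a positive value, with a median of 0.44. Smr3a had the most counts in this list and its level spread 21.8 times across the mice, and Prol1 had 391 to 3323 counts. All 11 parotid genes were tested and had a positive value, with a median of 1.13. Over all genes tested the median was -0.019, and 8216 of 17165 had a positive value. IL-21isoTg mouse 3 held 39.6% of its counts on the parotid list, and its part in these medians was not tested.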

How the data were processed

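Per the submitters' processing notes, the authors used FastQC 0.11.7, Trimmomatic 0.38, HISAT2 2.1.0, SAMtools 1.9, featureCounts 1.6.3 and DESeq2 1.24.0 with genome mm10. They deposited raw read counts per gene and mouse, which were used here. Deposited size-factor-normalized values and the authors' fold changes, test statistics and p-values were not used. Genes were filtered with edgeR 4.0.16 filterByExpr (minimum count 10, total 15), scaled with TMM and tested by quasi-likelihood with Benjamini-Hochberg adjustment over 17165 genes. DESeq2 1.42.0 and limma 3.58.1 (R 4.3.3) were alternatives; Python 3.11.15 and matplotlib 3.10.9 were used for sequences and plots. Positions came from GENCODE M21, which gave the deposited start and end for 31020 of 31286 shared identifiers. On simulated counts, the test recovered 87.2% of the genes given a log2 difference of 3, with 6.59% false among calls and 16804 genes tested. That difference is larger than the fold change of any member. Smaller differences were not simulated, so the recovery at the members' sizes is not known. A floor of 3 counts was used. The members and lists were chosen with earlier results of these data known. Besides the 7 members, the genes named are the 3 most abundant others of the sublingual, submandibular and parotid lists, the 5 closest in pattern to Dcpp1 and Klk1, genes overlapping a member, Il21, 4 epithelial markers and 3 markers of removed cells; Nkx2-3, Agr2, Smr2, Col1a1, Dcn and the genes specific to single libraries were added after their values were seen. Muc10 of the submandibular list was not found in the table by that symbol. One gene that this rule names is not reported here.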

Additional observations from a re-analysis of the deposited data

How the results depend on the processing

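Of 76 fold changes of the 5 tested genes under alternatives, 67 kept their sign, 9 had the opposite sign and 0 passed the threshold. The members called were 0 under each of 15 alternatives, and 0 to 0 with each mouse left out. Over all genes, DESeq2 called 72 higher and 9 lower, no filter gave 14 higher, and leaving out 1 mouse gave 0 to 6 higher (6 without WT mouse 3) and 0 to 0 lower. Leaving out both replicate 3 mice, an alternative added after the values were seen, gave 6 higher. With each mouse left out, the log2 fold change ran from -0.065 to 1.10 for Dcpp1, 0.029 to 1.65 for Dcpp2, -0.29 to 1.20 for Dcpp3, -0.68 to 0.95 for Klk1 and 0.088 to 1.39 for Egf. Opposite signs came for Dcpp1 without WT mouse 1 (-0.065) or 3 (-0.039), for Dcpp3 without IL-21isoTg mouse 1 (-0.26), WT mouse 1 (-0.29) or WT mouse 3 (-0.27), and for Klk1 without IL-21isoTg mouse 3 (-0.68). Without both replicate 3 mice, Dcpp1 was at -0.059, Dcpp3 at -0.31 and Klk1 at -0.30. The cause was not tested. The log2 ratio difference ran from -0.15 to 1.44 with each mouse left out, and Muc19 over Klk1 gave no value because Muc19 was at 0 in 4 libraries. With the replicate number as a block, fold changes were 0.50 for Dcpp1, 0.91 for Dcpp2, 0.44 for Dcpp3, 0.028 for Klk1 and 0.52 for Egf, with 0 calls. Same-numbered mice deviated with correlations of -0.224, 0.0677 and -0.0619, and differently numbered mice with -0.226 to 0.233. With so few mice per genotype, these values cannot show whether the numbers pair the mice. Depth limits Muc19 and Smgc, which cannot be compared at 0 to 4 counts.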

Other observations

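WT mouse 2, the library with the highest Dcpp1, Dcpp2 and Dcpp3 levels, also held most of the counts of 24 other genes, each with at least 10 CPM there and at least 20 times its level in every other library. The genes named here were chosen after their values were seen. Obp1a, an odorant-binding lipocalin, had 16554 counts in this library and 0 to 66 in the others. Its relative Obp1b had 1524 counts, against 0 to 2 elsewhere. Mup4, a major urinary protein gene, had 621 counts and Lcn11, a lipocalin gene, 403, both with 0 counts in each other library. The secretoglobin genes Scgb2b2 and Scgb1b2 had 4461 and 3387 counts, against at most 110 and 56 elsewhere. Esp15, of the exocrine gland-secreted peptide family, had 1096 counts, against at most 3. Dmbt1, a secreted scavenger receptor protein of mucosal glands, had 10653, against 50 to 427.

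Cartilage genes were in the same list. Col2a1, the collagen of cartilage, had 732 counts in WT mouse 2 and 2 to 27 elsewhere, Acan, the cartilage proteoglycan aggrecan, had 312 against 1 to 6, and Comp, cartilage oligomeric matrix protein, had 946 against 4 to 15. WT mouse 1 had 1 gene by the same rule, Calca, which encodes calcitonin and CGRP, with 2314 counts against 0 to 7 elsewhere. No such gene was found in the other 4 libraries. These values stand beside the Dcpp levels of WT mouse 2 without a test of their source.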
